A study of Mus musculus with 6 samples.

Results

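The intervals described here are the 745 broad stretches of open chromatin, each at least 7000 bp wide on chromosomes 1 to 19, among 21835 intervals in 1 list of accessible chromatin from Ezh2-null mouse fibroblasts. The members were chosen by width alone, so their width and what follows from it directly (total signal, the number of genes a long interval can reach) are given as a description and not as a result. The study profiled 6 samples of a c-myc-immortalised embryonic fibroblast line, called line A or C2, by ATAC-seq. In this assay a transposase cuts accessible DNA and tags it for sequencing. It had 2 wild-type samples, 2 samples of genotype Ezh2 -/-, and 2 samples of genotype Ezh2 -/- that also carried retroviral pMSCV-Ezh2. All 3 groups came from that 1 immortalised line, and transposition was done on 50000 whole cells per sample. The list is labelled for the Ezh2 -/- cells. Intervals of the wild-type and rescued samples were not analysed here, and the values below set no genotype against another.

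Each interval in the list carries a total signal (the area under the coverage) and a maximum signal (its height), in the authors' units, which belong to a called region that may have been split into several intervals. There is 1 value for both replicates of the group, so no replicate error and no depth can be given. Exact Clopper-Pearson 95% intervals on shares cover counting over intervals or genes only, and intervals of 1 list are not replicates, so no test between broad and narrower intervals was made. The labelled cell type was checked against 17 fibroblast marker genes, of which 14 had an interval of any width over them or within 1 kb of an end. Over all protein-coding genes the share with such an interval was 56.2%. Thy1, Dcn and Lum had none. A broad one was found at 1 of the 17, Col6a1, beside 4.51% of all protein-coding genes.

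In most cells open chromatin is concentrated in short stretches at promoters and enhancers, where nucleosomes are displaced by transcription factors. Broader open stretches are known from genes that are transcribed at high rates, from compact genes whose whole body lies between closely spaced regulatory elements, and from clusters of enhancers. The Ezh2 protein, absent from these cells by genotype, is the methyltransferase of Polycomb repressive complex 2 and acts on lysine 27 of histone H3. The Hox clusters are classical targets of this complex.

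The sequences just before 6 start sites that lay inside broad intervals are printed here because they stand for the immediate-early and serum-responsive genes that recur below. They are the 250 bases before the start site, 5′ to 3′ on the strand of the gene, taken from RefSeq promoters on GRCm38.p6, the assembly behind mm10. In the first 4, capitals mark the CArG box, the element bound by serum response factor, which is the product of Srf itself.
Srf (chr17:46556163-46556412, strand -): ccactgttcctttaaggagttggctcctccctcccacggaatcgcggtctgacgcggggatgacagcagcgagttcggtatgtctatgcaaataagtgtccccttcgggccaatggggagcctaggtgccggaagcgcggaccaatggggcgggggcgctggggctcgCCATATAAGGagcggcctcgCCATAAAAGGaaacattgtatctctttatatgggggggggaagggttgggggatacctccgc
Cnn2 (chr10:79988350-79988599, strand +): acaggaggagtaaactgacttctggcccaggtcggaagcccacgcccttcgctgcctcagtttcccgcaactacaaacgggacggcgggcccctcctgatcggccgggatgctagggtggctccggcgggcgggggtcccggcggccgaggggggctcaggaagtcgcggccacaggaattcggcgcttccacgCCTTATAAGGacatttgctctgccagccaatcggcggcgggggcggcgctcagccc
Egr2 (chr10:67537619-67537868, strand +): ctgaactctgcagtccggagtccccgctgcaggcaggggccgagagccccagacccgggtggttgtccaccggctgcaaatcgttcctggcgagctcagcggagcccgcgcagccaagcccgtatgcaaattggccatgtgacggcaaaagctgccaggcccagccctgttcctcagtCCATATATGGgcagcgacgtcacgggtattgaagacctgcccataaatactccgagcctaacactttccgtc
Zfp36 (chr7:28379229-28379478, strand -): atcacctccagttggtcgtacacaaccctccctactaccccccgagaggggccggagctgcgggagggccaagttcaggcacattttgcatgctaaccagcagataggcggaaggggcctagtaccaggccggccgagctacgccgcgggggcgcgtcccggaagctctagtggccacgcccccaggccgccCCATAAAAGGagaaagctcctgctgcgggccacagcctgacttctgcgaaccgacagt
In the next 2, capitals mark GGGCGG in either orientation, the core of the GC box read by factors of the Sp family.
Jun (chr4:95052223-95052472, strand -): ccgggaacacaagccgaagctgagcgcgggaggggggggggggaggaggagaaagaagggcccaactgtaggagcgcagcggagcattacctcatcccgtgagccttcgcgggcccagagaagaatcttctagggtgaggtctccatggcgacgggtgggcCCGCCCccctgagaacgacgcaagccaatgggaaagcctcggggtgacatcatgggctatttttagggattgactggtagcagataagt
Fosl2 (chr5:32136222-32136471, strand +): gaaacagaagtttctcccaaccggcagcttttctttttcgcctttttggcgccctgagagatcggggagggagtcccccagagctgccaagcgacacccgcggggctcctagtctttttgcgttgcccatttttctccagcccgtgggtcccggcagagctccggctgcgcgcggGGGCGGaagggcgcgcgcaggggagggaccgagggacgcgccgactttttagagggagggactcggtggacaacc
Srf held 2 CArG boxes in this stretch and the others of the first 4 held 1 each. Egr2, a growth-induced zinc finger factor, has several start sites in the table, and the sequence shown is that before position 67537869. The farthest upstream of them, 67535499, had no CArG box in the 250 bases before it and lay 1972 bp from the region of maximum. The other Egr2 start sites had 1 box each. The region of maximum signal lay 41 bp from the start site at Jun, 75 bp at Srf, 398 bp at Egr2 and 655 bp at Fosl2, but 3469 bp from it at Cnn2 and 3530 bp at Zfp36. The height of the interval thus stood near the printed sequence at the former 4 and away from it at the latter 2.

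The CArG box was not common among the start sites under broad intervals. Of 494 protein-coding genes with a start site inside one, 9 (1.82%) had a CArG box in the 250 bases before it, on either strand. They were Srf, Cnn2, Egr2, Zfp36, Chmp2a, Mknk2, Myl6, Rpl10a and Slc25a23. The share was 1.16% of 7314 genes with a start site under a narrower interval and 1.49% of all 16457 genes in the table. GGGCGG, on either strand, stood before a start site of 68.8% of the genes under broad intervals, 67.7% of those under narrower ones, 27.2% of genes with neither and 46.7% of all genes. TATAAA, the TATA box, was found at 8.10%, 5.54%, 20.04% and 13.8% of these groups in the same order. TGANTCA, the AP-1 element bound by Fos and Jun proteins, was found at 3.85%, 4.18%, 9.32% and 7.28%. CACGTG, the E-box bound by Myc and Max, was found at 11.3%, 9.98%, 5.20% and 7.72%. CCAAT, read by the factor NF-Y, was found at 40.5%, 39.7%, 37.5% and 39.4%, and the palindromic element of the factor Nrf1 at 1.21%, 2.15%, 0.428% and 1.22%. For the GC box core, the TATA box, the AP-1 element and the E-box the share under broad intervals was closer to that under narrower ones than to that of genes with neither. For the CArG box the genes with neither lay between the other groups, and for CCAAT all shares were close. CpG dinucleotides cluster at constitutively active promoters. The median number per 250 bases was 18 for 613 start sites under broad intervals (quartiles 11 and 24), 18 for 8648 under narrower ones and 4 for 10824 under none. The ratio of observed to expected CpG was 0.6 or more at 69.8% of start sites under broad intervals, 76.0% under narrower ones and 20.5% under none. These matches are a description of letters and not of binding.

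The broad intervals made up 3.45% of the 21624 intervals on chromosomes 1 to 19 and 11.8% of the 62.2 Mb that these covered. Their median width was 8691 bp (quartiles 7650 and 10803 bp), and the 20879 narrower intervals had a median of 2414 bp. Just inside the limit were intervals of 7005 bp at Mxra7, 7007 bp at Hdac5 and 7009 bp at Tpst2. Just outside were intervals of 6999 bp at Pkdcc, 6997 bp at Rps2 and Ndufb10, and 6996 bp between genes, 10595 bp from the nearest one. Signal per bp and maximum signal were 8.29 and 31 at Mxra7, 7.27 and 25 at Hdac5, and 13.7 and 82 at Tpst2. Of the broad intervals, 419 were the sole interval of their called region (56.2%, interval 52.6 to 59.8), against 78.8% of the narrower ones. The 745 broad intervals belonged to 714 called regions, 29 of which held 2 or more of them.

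The widest interval, 36181 bp at chr2:180254998-180291178, contained 3 whole genes: Rps21, which encodes a protein of the small ribosomal subunit, Cables2 and Rbbp8nl. Its total signal was 414785 and its maximum 79, which lay 171 bp from the nearest gene end. The second widest, 35030 bp at chr11:120799110-120834139, contained all of Fasn, the fatty acid synthase gene of 19209 bp and the longest gene to lie wholly inside a broad interval, and reached into Ccdc57. The third, 32692 bp at chr11:98920583-98953274, lay over Cdc6, a replication licensing factor, over the retinoic acid receptor gene Rara and over Gm46294. It had the highest total signal of these 3, 450377, with a maximum of 57. An interval of 27937 bp at chr11:119899620-119927556 contained Chmp6, which encodes a subunit of the endosomal sorting complex ESCRT-III, and 1 of 25166 bp at chr11:120772728-120797893 contained Rfng, Gps1 and Dus1l. The latter was followed by the Fasn interval after a gap of 1216 bp. The next in width lay over Pofut2 (24648 bp), over Psmd3, Csf3 and Med24 (22012 bp), over Lrsam1, Rpl12 and Slc2a8 (21760 bp), and over Rita1, Ddx54 and Cfap73 (21342 bp). They were followed by intervals over the 5′ end of the Polycomb gene Cbx8 (20079 bp) and over Neat1, a nuclear long non-coding RNA that scaffolds paraspeckles, together with Frmd8 (19648 bp). Of the 12 widest intervals, 6 lay on chromosome 11.

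**Figure D1:**
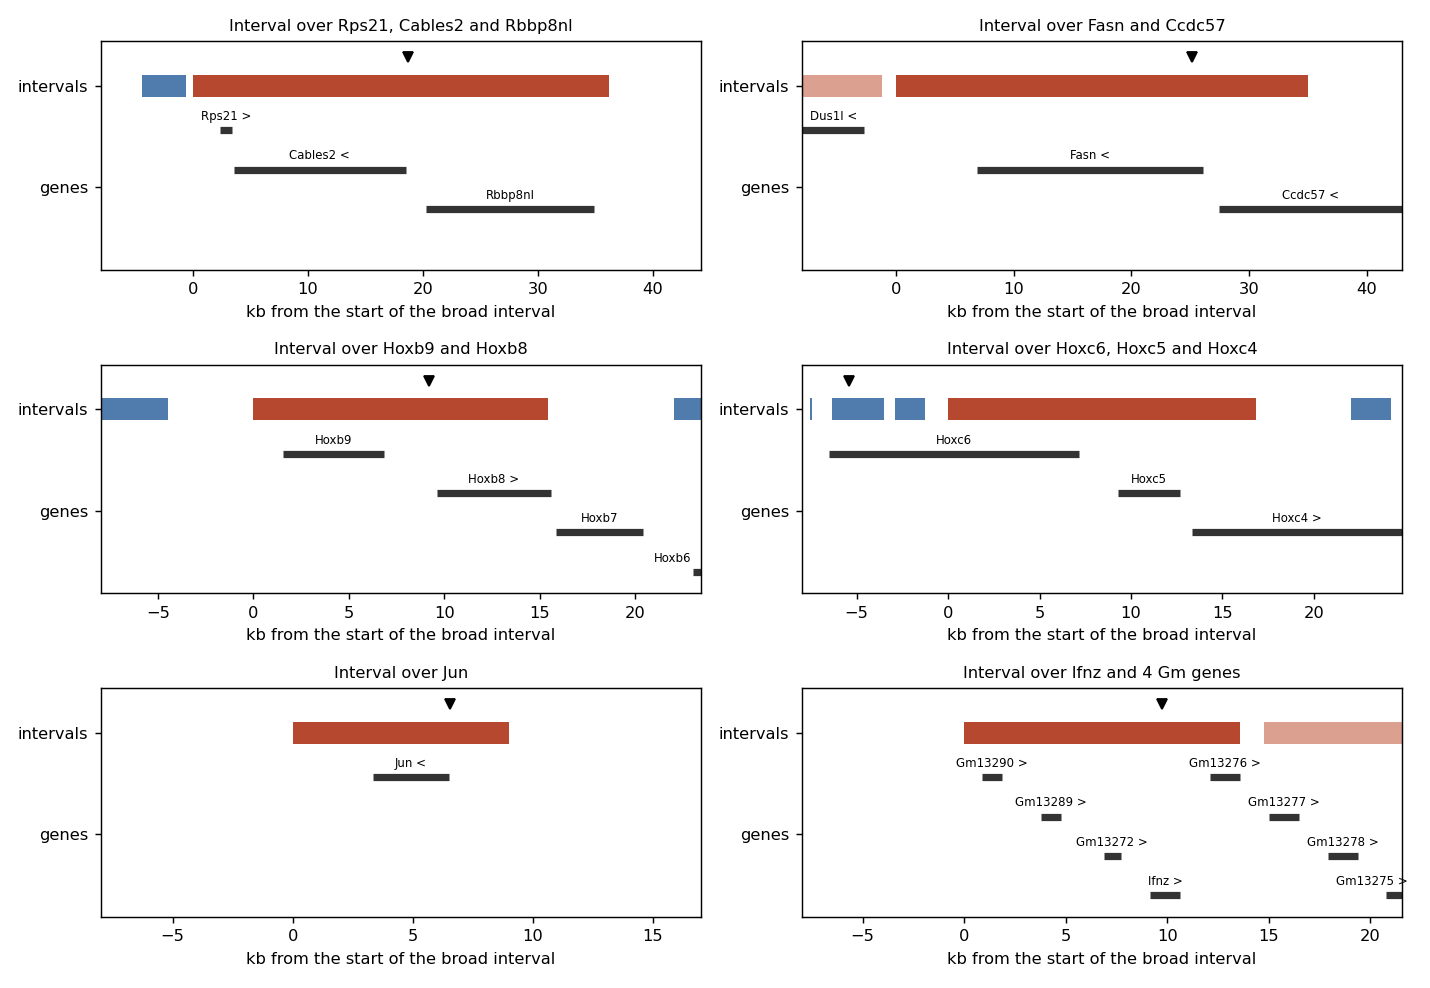
Maps of 6 broad intervals, with distance in kb from the start of the interval on the horizontal axis. Dark red bars are the named broad interval, pale red bars other broad intervals, blue bars narrower intervals, black bars protein-coding genes (> and < give the strand where the promoter table has it) and triangles the region of maximum signal; the 36181 bp interval holds 3 whole genes, and the maximum of the Hoxc4 to Hoxc6 interval lies outside it.

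Protein-coding genes lay under 662 of the 745 broad intervals, and 83 (11.1%, interval 8.97 to 13.6) overlapped none, against 27.7% of the narrower ones. Of the broad intervals, 432 overlapped 1 gene and 230 (30.9%, interval 27.6 to 34.3) overlapped 2 or more, against 8.59% of the narrower intervals. A whole gene lay inside 161 of them (21.6%, interval 18.7 to 24.7) and inside 0.953% of the narrower ones. These differences follow in part from length, because a longer interval meets more genes wherever it lies. In all, 894 protein-coding genes were overlapped and 204 lay wholly inside 1 broad interval. The latter were short, with a median of 3316 bp, whereas the median over all 20665 protein-coding genes was 17491 bp.

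The genes under broad intervals stood in gene-rich surroundings. The median number of protein-coding genes within 250 kb of the midpoint was 12 for broad intervals (quartiles 7 and 20) and 8 for narrower ones (quartiles 4 and 13). Without chromosome 11 beyond 90 Mb the medians were 11 and 8. Of the 5 intervals that overlapped most genes, 3 lay in clusters of related genes. Neighbouring intervals of 16373 and 13568 bp on chromosome 4, from 88772963 to 88804072, contained 6 and 5 short genes, among them Ifnz, an interferon of the type I cluster, and 10 genes known only by Gm numbers. Their maximum signals were 64 and 75. These genes are near-identical copies, so how their reads were placed is uncertain. An interval of 13210 bp on chromosome 19 lay over Mrpl49, Fau, Znhit2, Tm7sf2 and Vps51. Another, of 8496 bp on chromosome 13, contained the 5 histone genes H2ac8, H2bc8, H2bc7, H2ac7 and H3c4. An interval of 18061 bp on chromosome 11 overlapped Oxld1, Ccdc137, Arl16 and Hgs.

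Gene ends, and 3′ ends in particular, lay inside a larger share of broad than of narrower intervals. An end of a protein-coding gene lay within 1000 bp of 543 of the 745 broad intervals (72.9%, interval 69.5 to 76.0) and of 43.2% of the narrower ones. Inside the interval it lay at 517 (69.4%) and 38.1%. Per length of open chromatin the order was the opposite, with 140 gene ends per Mb in broad intervals and 178 per Mb in narrower ones. The promoter table gave a strand for 16457 genes (79.6%), which allowed 5′ and 3′ ends to be counted apart. There was none for chromosome 18, whose intervals were left out of these counts. Broad intervals held 65.7 gene 5′ ends per Mb and narrower ones 126. For 3′ ends the values were 46.9 and 20.6 per Mb. These densities divide by the width on which the intervals were chosen, so they are a description only. Per interval, a 5′ end lay inside 48.9% of broad (interval 45.3 to 52.6) and 29.4% of narrower intervals, and a 3′ end inside 30.9% and 4.84%. By width, 5′ ends stood at 72.0 per Mb in the 1048 intervals below 1000 bp and at 183 per Mb in those of 1000 to 2000 bp. From there they went to 129, 117, 101 and 86.8 in the next classes below 7000 bp, and to 69.2, 61.2 and 62.05 in the classes from 7000, 10000 and 15000 bp. Ends at 3′ stood at 28.4 per Mb below 1000 bp, went from 13.3 at 1000 to 2000 bp to 34.6 at 5000 to 7000 bp, and stood at 45.5, 50.3 and 44.8 above it. On chromosome 11 beyond 90 Mb the 5′ densities were 44.4 and 45.0 per Mb, nearly equal, and the 3′ densities 37.6 and 22.3. Without that segment they were 74.1 and 134 for 5′ ends and 50.5 and 20.5 for 3′ ends.

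Both kinds of end lay inside 147 of 740 broad intervals (19.9%, interval 17.0 to 22.9) and inside 2.13% of the narrower ones. A 5′ end without a 3′ end was inside 29.1% of the broad and 27.2% of the narrower intervals, and a 3′ end without a 5′ end inside 11.1% (interval 8.91 to 13.6) and 2.70%. Head-to-head pairs of 5′ ends at most 1000 bp apart, the layout of a bidirectional promoter, were inside 27 broad intervals (3.65%, interval 2.42 to 5.26) and 2.22% of the narrower ones. Where an interval overlapped 1 gene and held its 5′ end, a broad interval reached a median of 5196 bp downstream (quartiles 3150 and 6934 bp) and 3639 bp upstream (quartiles 1840 and 5283 bp), over 184 intervals. The narrower ones reached 1447 bp downstream and 996 bp upstream, over 4617 intervals. The downstream part was the longer in 56.5% of the former and 69.8% of the latter, and its median share of the interval was 60.4% and 59.6%.

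**Figure D2:**
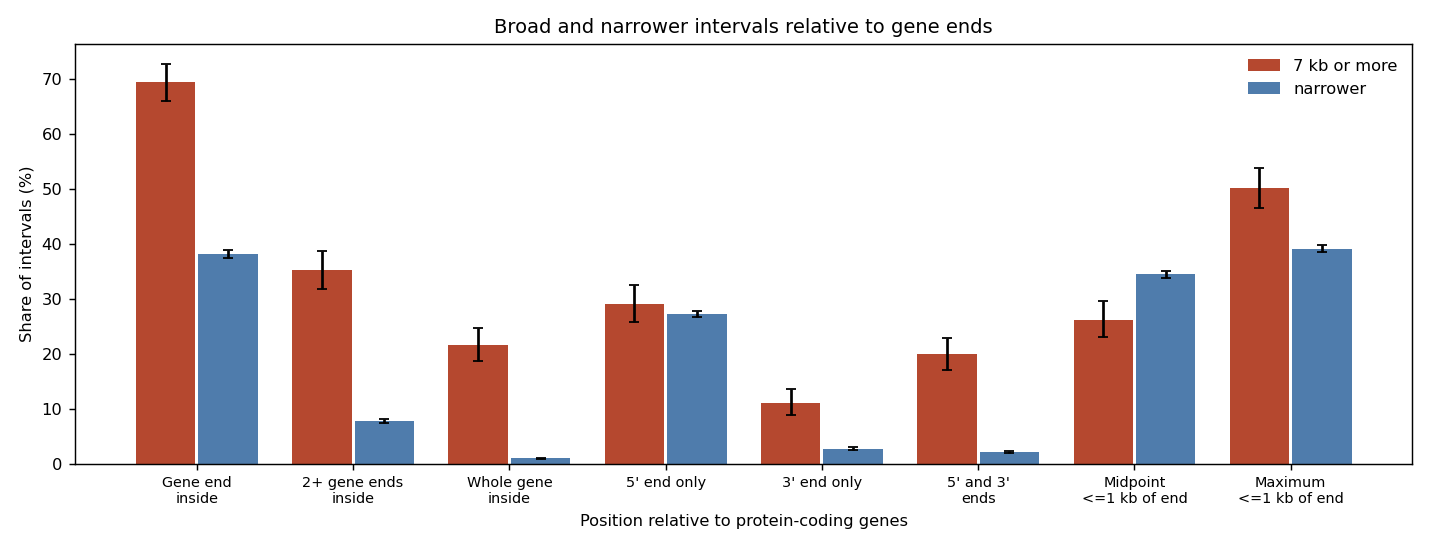
Share of broad (red, 745, or 740 where strand is needed) and narrower intervals (blue, 20879 or 20432) by position relative to protein-coding genes; bars are percentages and error bars exact 95% binomial intervals over intervals. The shares with both ends are 19.9% and 2.13%, and those with only a 5′ end 29.1% and 27.2%.

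The midpoint of the interval and the middle of its region of maximum signal gave measures of position at single points. A region of maximum can be several kb long, as at Rpl12 on chromosome 2 (32961701 to 32966893). Its middle was used for every distance. The midpoint measure still depends on width, because a gene end inside a wide interval can lie farther from its midpoint. The midpoint lay within 1000 bp of a gene end in 26.2% of broad intervals (interval 23.1 to 29.5) and 34.4% of narrower ones, inside a gene and farther from its ends in 49.0% and 37.2%, and between genes in 24.8% and 28.4%. At a distance of 2500 bp the direction was the opposite, with 51.7% against 44.2%. On chromosome 11 beyond 90 Mb it was the opposite at 1000 bp too, with 23.7% against 16.4%. The region of maximum lay within 1000 bp of a gene end for 50.1% of broad intervals (interval 46.4 to 53.7) and 39.1% of narrower ones. It lay within 1000 bp of a 5′ end for 38.6% and 30.9%, and of a 3′ end for 5.95% and 3.31%. Against narrower intervals with a total signal above the list's median, the difference in the first of these shares nearly vanished (50.1% against 48.4%). The region of maximum lay inside 86.4% of broad and 81.4% of narrower intervals. Over only these intervals, that first share was 49.4% and 41.7%. Of the 9 chromosomes with at least 20 broad intervals it was higher for broad ones on 7, and lower on chromosome 15 (34.8% against 40.8%) and chromosome 19 (35.9% against 40.0%). On chromosome 11 up to 90 Mb, with 10 broad intervals, it was 30% against 54.9%.

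Signal per bp, the total signal of a called region divided by its span, was slightly lower for broad intervals. Its median was 9.64 over the 714 called regions with a broad interval (exact 95% interval of the median 9.32 to 9.84) and 10.8 over 18300 other regions (interval 10.7 to 10.8). Against only the narrower intervals with a total signal above the list's median, it was 9.64 against 12.5. By width of interval it was 8.46 below 1000 bp, 11.8 at 1000 to 2000 bp, between 9.66 and 9.98 in the 4 classes from 2000 to 7000 bp, and 9.62, 9.33 and 10.1 in the 3 broad classes. A piece of a split region carries the value of the whole region, and below 1000 bp only 52.0% of intervals were the sole one of their region. Over intervals that made up a whole region and held its maximum, the median was 20.8 below 1000 bp and 12.9 at 1000 to 2000 bp. In the 3 broad classes it was 10.3, 9.97 and 10.9. The lowest total signal in the list was 15316, so an interval of 1000 bp that makes up its whole region had to reach 15.3 per bp to be listed and 1 of 7000 bp only 2.19. On 9 chromosomes with at least 20 broad intervals, the median signal per bp over broad intervals was lower than over narrower ones on 6. On chromosomes 5, 10 and 19 it was higher, as it was on chromosome 11 beyond 90 Mb (8.86 against 8.42).

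Height, in contrast, was greater. The median maximum signal was 43 (interval 41 to 45) over regions with a broad interval and 26 over the others, and on each of the 9 chromosomes the broad intervals had the higher median. Against only the narrower intervals with a total signal above the list's median, it was 43 against 34. It went from 25 at 2000 to 3000 bp to 41, 47 and 54 in the 3 broad classes. The maximum over a longer stretch is taken over more positions, so this measure is not independent of width. The ratio of maximum to mean signal per bp had a median of 4.23 for regions with a broad interval and 2.48 for the others. Among the 416 broad intervals that made up a whole called region and held its maximum, width was only weakly related to the maximum (Spearman's rho 0.17) and hardly to signal per bp (rho 0.02), as a description over intervals that share 1 library group and its depth. Over the 15176 such narrower intervals the values were 0.12 and -0.28.

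**Figure D3:**
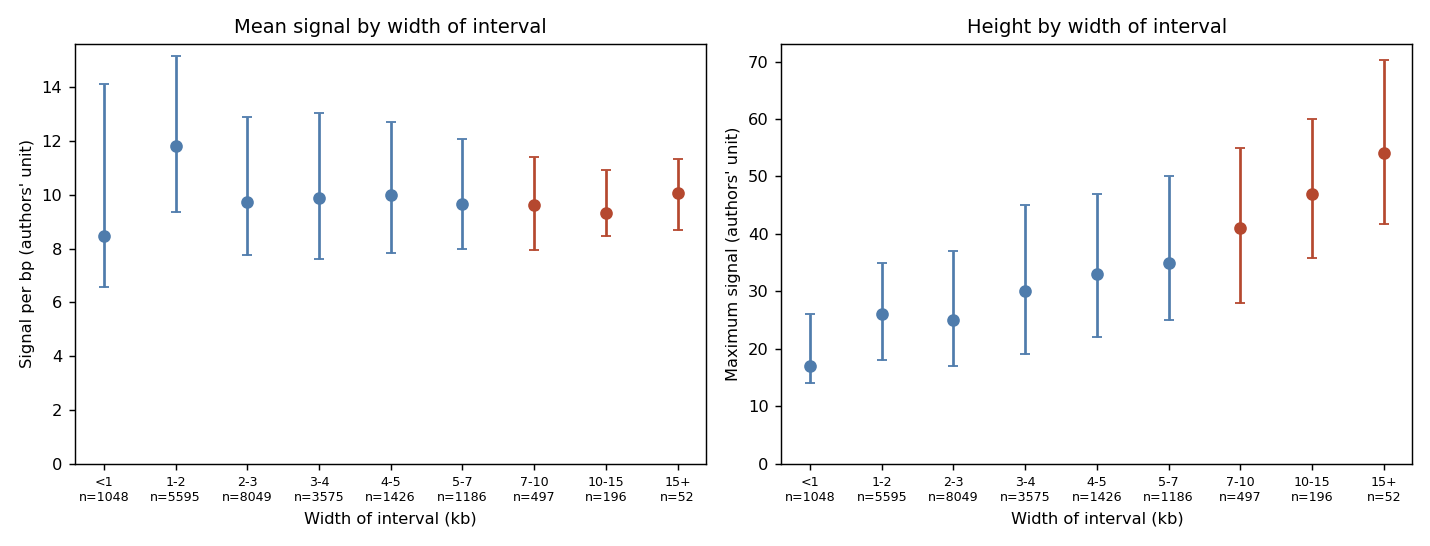
Signal per bp of the called region (left) and maximum signal (right), in the authors' units, by width of interval in kb; points are medians, bars quartiles, red the broad classes and n the intervals in each class. From 2 kb upward the medians of signal per bp lie between 9.33 and 10.1, while the maximum goes from 25 to 54. Pieces of a split region carry the values of the whole region.

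The highest signal per bp among the broad intervals was 22.3, over the mitochondrial import cofactor gene Grpel1 on chromosome 5 (7224 bp, maximum 79). It was followed by 21.4 at Fgfrl1, which encodes a decoy fibroblast growth factor receptor, 20.6 at Fosl2, an AP-1 subunit, and 19.7 at Sox12, whose gene lay wholly inside. The others of the first 10 were Tnrc18 (18.6), the citrate lyase gene Acly (18.03), Tgif1 (17.97), the anti-apoptotic gene Bcl2l1 (17.5), the corepressor gene Sin3a (17.5) and the AP-1 subunit gene Jun (17.5). At Jun the interval ran from 95045712 to 95054726 on chromosome 4 (9015 bp), the whole gene lay inside, and the maximum of 75 lay 41 bp from the start site whose sequence is printed above. At Acly the maximum of 70 lay 42 bp from a gene end. The lowest values were 5.02 over Kndc1 and 5.31 in an interval on chromosome 1, 44795 bp from any protein-coding gene, whose nearest gene is Smyd2. They were followed by 5.52 over Sardh, 5.55 in an interval 11875 bp from a gene near Nol4l, and 5.58 over Tnip2. The highest maximum signals were 95 at Tex2, 94 at Ep400 and Pus1, 94 at Prss12 with the snoRNA host gene Snhg8, 90 at Mob3a and Izumo4 and 88 at Sp2.

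The broad intervals were unevenly spread over the chromosomes. Chromosome 11 held 196 of them, 8.04% of its intervals, and 186 of these lay beyond 90 Mb, where 10.8% of intervals were broad against 1.39% on the rest of the chromosome. Chromosome 10 had 77 (5.65%), chromosome 5 had 112 (4.46%), chromosome 2 had 110 (4.43%) and chromosome 19 had 39 (4.30%). Chromosome 14 had none among 430 intervals, and chromosomes 3, 7, 13 and 16 had between 4 and 9 each. Chromosomes 2, 5, 10 and 11 together held 66.4% of the broad intervals and 39.8% of the narrower ones. The labels say nothing of chromosome copy number in this line, and its part in these counts was not tested.

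**Figure D4:**
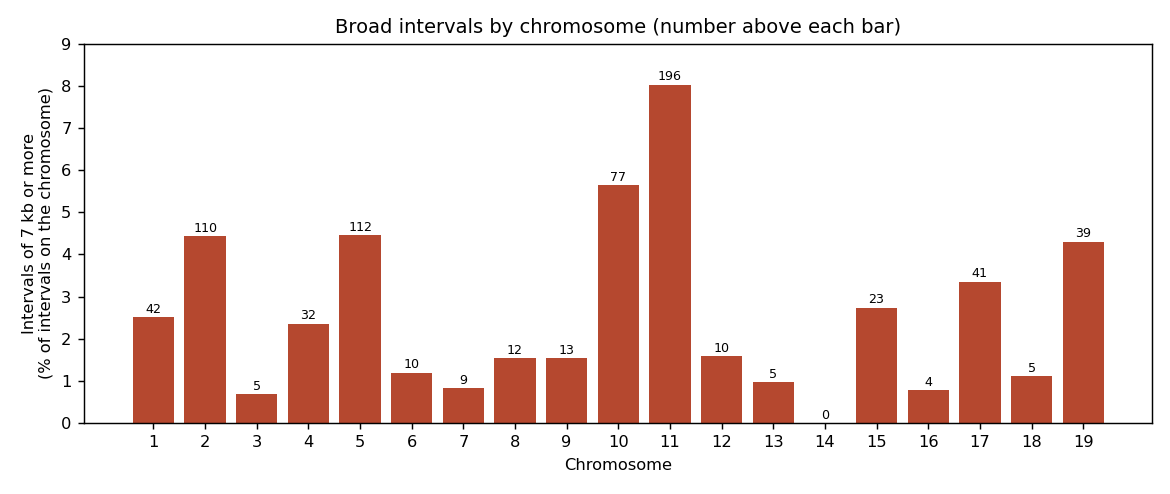
Broad intervals as a percentage of all intervals on each of chromosomes 1 to 19, with their number above each bar. Chromosome 11 stands at 8.04% and chromosome 14 at 0.

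Broad intervals also had close neighbours. Another interval of any width, pieces of the same called region included, lay within 3000 bp of 55.0% of them. For narrower intervals the share was 27.6%. Called regions split into several intervals held 326 of the 745 broad intervals and 4422 of the 20879 narrower ones, so splitting enters this measure. Joined where at most 50 kb apart, the broad intervals formed 527 runs, of which 409 held a single interval and 11 held 5 or more, 73 intervals in all. The longest run had 10 broad intervals over 251 kb of chromosome 10 (81242830 to 81493961), which covered 42.0% of it, from Zfr2 to Ncln. Among them, 2 intervals of 13961 and 17323 bp lay over Nfic, a nuclear factor I gene. A run of 9 on chromosome 11 (119899620 to 120106551) went from Chmp6 through Baiap2 and Aatk to Tepsin, Ndufaf8 and Slc38a10 and covered 50.2% of 207 kb. Another of 8 intervals on chromosome 11 went from Srcin1 over the Polycomb genes Epop and Pcgf2 to Cwc25. Of the called regions with several broad intervals, the 1 of highest total signal (563210) held 2 over Tbc1d16. The next, with 454788, held 3 over Madcam1 and Tpgs1, over Cdc34 and Gzmm, and over Bsg. Far from genes lay an interval of 7269 bp on chromosome 15 that overlapped the non-coding gene Gm36819, 165384 bp from the nearest protein-coding gene, Trib1. Others lay 117908 bp from Klf14, 113877 bp from Tnrc6c, 106494 bp from Ptpn1 and 105935 bp from L3mbtl4.

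Across gene lists, a broad interval over a gene or within 1 kb of its end was found at 932 of 20665 protein-coding genes, 4.51%. The lists were written with earlier results of these data known, so the shares below are read beside that value and not tested. Immediate-early genes, which growth signals induce within minutes and several of which encode subunits of AP-1, had the highest share, 11 of 25 (44.0%, interval 24.4 to 65.1). None of these 25 genes lies on chromosome 11 beyond 90 Mb. Of the 24 immediate-early genes with an interval of any width, 45.8% had a broad one, and over all genes 8.02%. By total signal the first were Egr1, a zinc finger factor (219034), Zfp36, an mRNA decay factor (180767), Fosl2 (162832), Jun (157321) and Junb (149889). The AP-1 genes Fos and Jund and the genes Ier2, Ier5, Egr2 and Klf10 followed, with total signals between 99240 and 139799. In 8 of the 11, namely Egr1, Zfp36, Jun, Junb, Ier5, Fos, Jund and Ier2, the whole gene lay inside the interval. Maximum signals ran from 43 at Zfp36 to 75 at Jun. Of these 11, already chosen for a broad interval, 8 had a start site in the promoter table. All 8 had at least 1 inside a broad interval, and 2 of them, Egr2 and Zfp36, had a CArG box in the 250 bases before such a site. Bases farther upstream were not searched, so the others may hold one there. Egr1, Ier2 and Klf10 were not in that table, so their start sites were not searched. Start sites of the other genes of the list were not looked up here.

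Cytoskeletal genes and targets of serum response factor had a broad interval at 5 of 25 (20%, interval 6.83 to 40.7). These were the calponin gene Cnn2 (total signal 297117, maximum 65), the beta-actin gene Actb (257731 and 72), the tubulin gene Tubb4b (166483 and 82), Srf itself (120911 and 44) and Tagln2 (68231 and 24). At Actb the interval was 18106 bp wide and held the whole gene. Of 32 extracellular matrix genes 4 had one (12.5%, interval 3.51 to 29.0), namely the metalloproteinase inhibitor genes Timp2 (164159) and Timp3 (107637), the collagen gene Col6a1 (144531) and the matricellular gene Thbs1 (101621). Mesenchymal transcription factor genes had one at 3 of 24 (12.5%), Tead3, Prrx2 and Snai1, and 16 others of this list had a narrower interval only. These counts do not ask where in the gene the interval lay. At Prrx2, Timp2 and Timp3 it lay inside the gene and reached neither end. At Snai1 and Tead3 it covered part of the gene, with a single end inside.

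Signalling and growth factor genes had a broad interval at 7 of 38 (18.4%, interval 7.74 to 34.3). They were led by Socs3, an inhibitor of cytokine signalling (332898, maximum 83), and by Id1 (158441), Hes1 (156239), Id2 (126021) and Amotl2 (110625), and Smad6 and Notch1 followed. At Hes1, a Notch target that encodes a repressor, an interval of 14710 bp held the whole gene. Of 35 genes for cyclins, their kinases and the p53 and Myc networks 5 had one (14.3%), Cdk4 (193222), Nop56 (134990), Sesn2 (110140), Cdk6 (97916) and Ncl (87669). The interval at Ncl held the 3′ end of the gene and not its 5′ end. Cdk4 and Nop56, which encodes a core protein of nucleolar ribonucleoprotein particles, lay wholly inside theirs.

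Genes of the Polycomb and Trithorax complexes had a broad interval at 8 of 38 (21.1%, interval 9.55 to 37.3), but 5 of the 8 lay on chromosome 11 beyond 90 Mb. Outside that segment the share was 3 of 32 (9.38%), beside 3.60% of all genes there. Among the 8 were the PRC1 genes Pcgf2 (280999, maximum 81), Cbx8 (274152 and 71), Ring1 (163926 and 73) and Cbx2 (125324 and 46), the PRC2 accessory gene Epop (204844 and 40), and the Trithorax genes Wdr5 (119049 and 57) and Men1 (93229 and 55). Cbx2 and Cbx8 are neighbours, and their intervals of 7518 and 20079 bp lay within 119017055 to 119059646 on chromosome 11.

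Developmental regulators that are textbook Polycomb targets had a broad interval at 12 of 94 (12.8%, interval 6.77 to 21.2), through only 7 intervals, since Hox genes share them. Outside chromosome 11 beyond 90 Mb the share was 6 of 82 (7.32%). Broad intervals lay in 2 clusters of Hox genes, homeobox factors that set position along the body axis. In HoxB, 15455 bp from 96269760 to 96285214 lay over Hoxb9 and Hoxb8 and came within 1 kb of Hoxb7, with a signal per bp of 10.97 and a maximum of 40. A second, of 10138 bp, lay over Hoxb6 and Hoxb5, with 7.62 and 31. In HoxC, 16841 bp from 103004734 to 103021574 on chromosome 15 lay over Hoxc6, Hoxc5 and Hoxc4, with 9.82 and 40, and its region of maximum lay outside this interval. The maxima of these 3, 31 to 40, stood below the median of 43 for all broad regions. The other members were Sox18 (124141), Sox9 (111528), Emx2 (79730) and Zic1 (65981), with maxima of 34 to 48.

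Among marker genes of other cell types, Rbfox3 was the only one of 15 neuronal genes with a broad interval, and it had 2. Of 17 haematopoietic genes Cd68 and Cd79b had one, and of 18 hepatocyte genes none did (upper bound 18.5%). Rbfox3 and Cd79b lie on chromosome 11 beyond 90 Mb. Without that segment no neuronal and 1 of 16 haematopoietic genes had one.

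**Figure D5:**
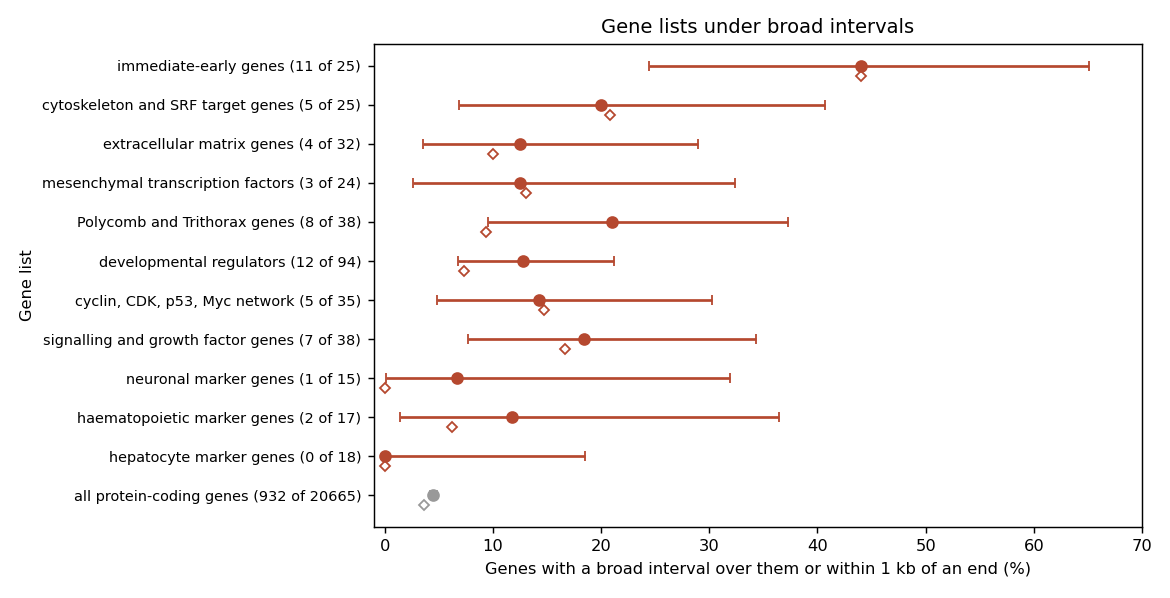
Percentage of genes in each list with a broad interval over them or within 1 kb of an end (filled points, with exact 95% binomial intervals over genes; numbers beside the names) and the same without chromosome 11 beyond 90 Mb (open diamonds). Immediate-early genes stand at 44.0% and all protein-coding genes at 4.51%.

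Genes of small RNAs lay under broad intervals as well. Of 1136 microRNA genes 44 did, in 33 intervals, which is 6.02 per Mb of broad interval beside 2.41 per Mb of narrower ones. Of 1286 small nucleolar RNA genes, which guide the modification of ribosomal RNA and mostly sit in introns of host genes, 47 did, in 21 intervals (6.43 per Mb against 1.22). Their hosts included Rpl3, Rpl7a, Rpl12, Rpsa, Hspa8, Nop56 and the non-coding genes Snhg3, Snhg7, Snhg8 and Snhg12. Of 391 transfer RNA genes 42 did, in 11 intervals (5.74 per Mb against 2.59), with up to 7 in 1 interval. These genes lie in clusters, so they count as fewer independent loci than their number. Among all 20665 protein-coding genes, 894 were overlapped by a broad interval. That share is slightly above those of the microRNA and small nucleolar RNA genes and below that of the transfer RNA genes. The densities per Mb divide by the width on which the intervals were chosen, so they are a description only.

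Several of the microRNA genes belong to well-known clusters. Their mature sequences are printed from RefSeq (GRCm38.p6), 5′ to 3′, with the seed, bases 2 to 8, in capitals. These 2 share a seed of the let-7 family, which represses growth and pluripotency genes.
mmu-let-7i-5p: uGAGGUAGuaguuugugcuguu
mmu-let-7e-5p: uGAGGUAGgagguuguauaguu
The next 2 share the seed of the miR-17 family and lie in an intron of the replication helicase gene Mcm7, with miR-25 beside them.
mmu-miR-93-5p: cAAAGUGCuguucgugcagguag
mmu-miR-106b-5p: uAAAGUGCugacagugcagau
mmu-miR-25-3p: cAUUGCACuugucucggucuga
The last 3 come from 1 cluster on chromosome 8.
mmu-miR-23a-3p: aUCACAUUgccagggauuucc
mmu-miR-27a-3p: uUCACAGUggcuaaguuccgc
mmu-miR-24-3p: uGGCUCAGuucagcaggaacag
The gene of let-7i lay in an interval of 10398 bp that overlapped no protein-coding gene (total signal 101094, maximum 38, signal per bp 9.72). That of let-7e lay with Mir99b and Mir125a in 11110 bp that overlapped Spaca6 and Has1 (170763, 56 and 10.9). The genes Mir25, Mir93 and Mir106b lay in 8664 bp over Cops6 and Mcm7 (364361, 56 and 8.92), and the maximum of that called region lay outside this interval. Mir23a, Mir27a and Mir24-2 lay in 12250 bp from 84197136 to 84209385 (130834, 39 and 10.7), again with no protein-coding gene. Their maxima of 38 to 56 lay around the median of 43 for broad regions.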

How the data were processed

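The study measured chromatin accessibility by ATAC-seq in 6 samples, and the values used were 1 deposited list of intervals of the Ezh2 -/- group. The submitters' processing notes name Bowtie2 2.2.9, deepTools, SEACR and mm10, with no order and no settings. Not given in the sources used here were the threshold, any control, duplicate handling, any transposase shift, and the way in which both replicates entered 1 list. Column 4 is a deposited score per called region, read as its total signal, and column 5 its deposited maximum signal. The sources used here state no normalization for either. SEACR calls regions by the area under sparse coverage, so its threshold sets which regions are listed. Intervals with the same total, maximum and region of maximum were taken as pieces of 1 called region, whose span includes the region of maximum. No interval records depth, so no error based on depth is given.

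Genes came from RefSeq on GRCm38.p6. The planned position measures were kept, and 5′ and 3′ ends used the strand of the promoter table. The members and gene lists were chosen with earlier results of these data known. The 11 lists and the rule for named genes were written down with the plan: the 12 widest intervals, the extremes of signal per bp, maximum, gene number and distance from genes, those next to the width limit, the called regions of highest total signal with 2 or more broad intervals, and up to 5 members of each list with every Hox gene; further list members, the runs and the small RNA genes were named after their values were seen. Some genes that this rule selects are not reported here. Alternatives covered the width limit, the window, the overlap, the span and the chromosome 11 segment. Python 3.11.15, numpy 2.4.6, pandas 2.3.3, scipy 1.17.1 and matplotlib 3.10.9 were used. The lookup was tested on simulated data and differed from a plain loop at 0 of 400 queries.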

Additional observations from a re-analysis of the deposited data

Results flagged for a closer look

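Outside chromosomes 1 to 19 the list held 8 further intervals of 7 kb or more, which the comparisons above do not use. All 8 lay on unplaced or unlocalised sequence and none on chromosome X. They stand out because 2 of them, of 102264 and 11840 bp, belonged to 1 called region with a maximum signal of 5412 and a signal per bp of 235, while the other 6 had maxima of 22 to 43 and signals per bp of 8.52 to 11.9.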

How the results depend on the processing

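The number of broad intervals was 1931 at a minimum of 5000 bp, 248 at 10000 bp and 1680 with the intervals of a called region joined, against 745. The share with a gene end within 1000 bp, 72.9%, was 76.6% with a window of 2500 bp, 69.4% for ends inside the interval, 79.7% for all annotated genes and 80.6% at a minimum of 10000 bp, each above the share of narrower intervals. The share with 2 or more genes fell from 30.9% to 7.92% where at least 50% of each gene had to be covered (0.120% of narrower intervals). The share with a midpoint near a gene end turned from below to above that of narrower intervals at 2500 bp (51.7% against 44.2%). The median signal per bp, 9.64, was 12.3 with the total of the called region divided by the width of each interval. That setting gives too high a value to pieces of a split region, whose total belongs to the whole region. The median was 10.3 over intervals that made up a whole called region and held its maximum, and 9.90 without chromosome 11 beyond 90 Mb. Each was below the value of narrower intervals (13.0, 11.4 and 10.9). The median maximum was 48 at a minimum of 10000 bp. Apart from the share with a gene end nearby, the values without that segment and those against only the narrower intervals above the median total signal were chosen after seeing the data, as was the share by region of maximum. No paired analysis was possible because the list has 1 value for both replicates, and for the same reason no replicate could be left out. The depth is unknown, and a weak interval below the threshold cannot be told from closed chromatin.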
